A study of Homo sapiens with 60 samples.

Results

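The selenoproteins and the genes that build and decode selenocysteine were followed in 1321N1, a human astrocytoma-derived line used as an astrocyte model, exposed to arsenic, cadmium or mercury. The set was defined by gene symbol as 32 of the 62703 genes counted. It held 24 genes whose proteins carry selenocysteine and 8 genes of selenocysteine synthesis and decoding whose proteins do not. The cells, all of the same line and in the same medium, received 2.55 µM sodium metaarsenite, 2.3 µM cadmium chloride or 20 µM mercury chloride, or were left non-treated, and were lysed after 1.5, 3, 6, 12 or 24 h. Each of the 20 groups had 3 libraries, 60 in all, made by sequencing mRNA from the 3′ end. The labels call the triplicates technical and name no separate cultures, so the p-values measure the spread between these libraries. The doses were chosen by the study to be equally toxic in a treatment longer than any sampled here. Equal toxicity at the sampled times was not tested. A line grown in culture is not a normal astrocyte.

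Selenocysteine is inserted at a UGA codon, which elsewhere ends translation. Decoding needs a stem-loop in the mRNA called the SECIS element, the SECIS-binding protein SECISBP2, the elongation factor EEFSEC and a dedicated tRNA on which selenocysteine is made by PSTK and SEPSECS from selenophosphate supplied by SEPHS2. Where decoding fails, a UGA lying upstream of an exon junction can be read as a premature stop and send the mRNA to nonsense-mediated decay, and some selenoprotein mRNAs are known to be more sensitive to low selenium than others. Mercury binds selenium and selenols tightly, which is the question behind setting it against arsenic and cadmium. Arsenic and cadmium also react with thiols, and all 3 metals are known activators of the oxidant-responsive factor NRF2, of which TXNRD1 is a textbook target.

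The selenocysteine codons of the members on which the results turn were read from the GRCh38 genome at the positions given by GENCODE 44. They are shown because the place of the codon in the mRNA is compared with the changes at 24 h. The codon is in capitals, in DNA letters, with 15 bases before it and up to 12 bases after it.
TXNRD1, chr12:104348413-104348415, plus strand, last exon: ctccaggctggctgcTGAggttaa
SELENOS, chr15:101272777-101272779, minus strand, last exon: ccgtcatctggcggaTGAggctaa
SELENOK, chr3:53885831-53885833, minus strand, 5 bases before the last junction: ccaatggctggtggaTGAggaaggtaa
MSRB1, chr16:1940812-1940814, minus strand, 34 bases before the last junction: gggcagtcccgattcTGAatattcagcagc
GPX4, chr19:1105403-1105405, plus strand, 342 bases before the last junction: aacgtggcctcccagTGAggcaagaccgaa
SELENOT, chr3:150622392-150622394, plus strand, 470 bases before the last junction: cagatttgtgtttccTGAggttataggcgg
In the transcript of 17 exons read for TXNRD1 the selenocysteine was codon 648 of 649. In SELENOS it was codon 188 of 189, so in both genes the UGA stood directly before the last sense codon. In GPX4 it was codon 73 of 197 and in SELENOT codon 49 of 195.

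Of the 32 members, 24 had enough counts to be tested and 8 did not. GPX2, DIO1 and SELENOP had no count in any of the 60 libraries, GPX3, DIO3 and SELENOV had 2 counts each over all libraries, and SELENOM had 40. A count of 0 in a library allowed a level of up to 0.681 to 1.35 CPM (counts scaled to a common library total), depending on its depth, and such intervals cover counting error only. GPX1, the cytosolic glutathione peroxidase and the selenoprotein mRNA best known to fall with low selenium, had 195 counts over all libraries and at most 10 in any of them. Of its last 400 exonic bases, 99.5% also lie in exons of a same-strand readthrough gene that had no count in any library, and the counting mode the study names leaves out reads that match exons of more than 1 gene. The part of this overlap in the low GPX1 count was not tested. No other member shared any of its last 400 exonic bases with a same-strand gene. A processed pseudogene of GPX1, GPX1P1, had 439 counts. GPX1 was therefore not compared between groups. Depth ran from 2215276 to 4404609 counts per library, the 60 pairs of libraries of the same group correlated at 0.958 to 0.977. Cadmium 24 h replicate 3 was the lowest of the 60 libraries in SELENOH (2.16 CPM), SELENOI (12.9 CPM) and SELENOS (59.6 CPM), and calls lost without it are given beside the results. Of 10 astrocyte markers 4 had a median above 3 counts (VIM, SOX9, GJA1 and NES), while ALDH1L1 and AQP4 were at 0 in all libraries and GFAP was at 0 in 57, so defining markers of a mature astrocyte were absent. The summed marker level overlapped between conditions, at 3610 to 5390 CPM in non-treated libraries. It was 3150 to 5320, 3100 to 5890 and 3600 to 5730 CPM with arsenic, cadmium and mercury. The sum was almost all VIM (median 4490 CPM, beside 78.2 for SOX9, 20.4 for GJA1 and 3.41 for NES), so it does not describe the other markers. Of 3 neuron markers, SYT1 had a median of 11 CPM, while RBFOX3 was at 0 in 57 libraries and SNAP25 at 0 in 47. None of 3 microglia and 3 oligodendrocyte markers had a median above 3 counts.

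Differences are log2 fold changes (LFC) from a single quasi-likelihood model of all 60 libraries and 12341 genes, and a gene was called at a Benjamini-Hochberg adjusted p under 0.05 by edgeR unless DESeq2 is named. In these bulk libraries a lower level of an mRNA in each cell and a smaller share of cells that hold it cannot be told apart. Of the 24 tested members, 10 were called against non-treated cells of the same time with at least 1 metal at 1 time, and 14 never were by edgeR, among them MSRB1, which DESeq2 called once. After 1.5 h none was called with any metal by edgeR or DESeq2, with unadjusted p under 0.05 for 2 members with arsenic, 2 with cadmium and 3 with mercury, where 0.0729%, 0% and 0.567% of all tested genes were called. After 3 h the only call was TXNRD1 with mercury, where 1.55% of all genes were called. Arsenic and cadmium gave none by either tool at 3 h, with unadjusted p under 0.05 for 2 members and 1 member, against backgrounds of 0.138% and 0.203%. After 6 h arsenic and cadmium each gave 1 member, TXNRD1, against backgrounds of 0.916% and 2.05%, and mercury gave 3 by edgeR, all higher, against 7.48%, with MSRB1 added as lower by DESeq2. After 12 h arsenic gave 2 (background 4.11%), cadmium 2 (8.18%) and mercury 4 (16%). After 24 h arsenic gave 7, with 3 higher and 4 lower, where 14.3% of all genes were called, 6.54% higher and 7.75% lower, and the 7 became 4 without arsenic replicate 2 or without non-treated replicate 1. Cadmium gave 1 at 24 h, against 2.19%. Mercury gave 9 at 24 h, with 5 higher and 4 lower, where 27.8% of all genes were called, 13.9% higher and 13.9% lower, and the 9 became 5 without non-treated replicate 3. The median LFC of the 24 tested members at 24 h stood at 0.13 under arsenic, 0.03 under cadmium and 0.14 under mercury, beside 0.00, -0.01 and -0.02 over all genes.

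**Figure D1:**
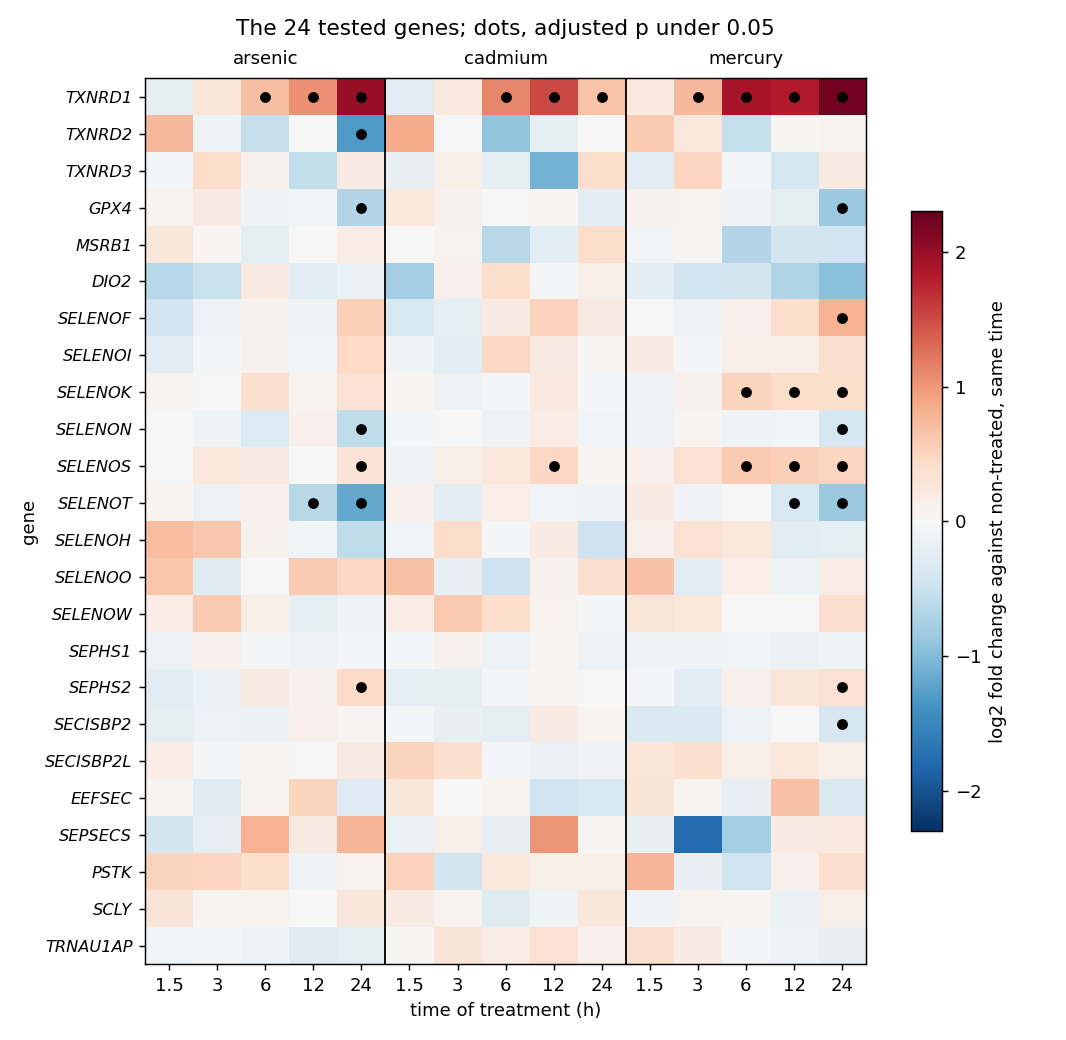
Log2 fold change of the 24 tested members (rows, grouped by role) against non-treated cells of the same time, for arsenic, cadmium and mercury at 1.5 to 24 h (columns); colour gives the fold change and a dot an adjusted p under 0.05. TXNRD1 carried 10 of the dots, and most of the others stood in the 24 h columns of arsenic and mercury.

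TXNRD1, the cytosolic thioredoxin reductase that keeps thioredoxin reduced with electrons from NADPH, was higher with all 3 metals and was the only member called with cadmium at more than 1 time. In the 24 h non-treated libraries it stood at 107, 126 and 156 CPM. The 24 h arsenic libraries held 522, 535 and 515 CPM and the mercury libraries 607, 664 and 555 CPM. Every arsenic and mercury library thus lay more than 3 times above the highest non-treated library, with no overlap. Cadmium at 24 h gave 225, 233 and 156 CPM, so its lowest library lay at the level of the highest non-treated library. At 24 h the LFC came to 2.01 for arsenic (SE 0.15, adjusted p = 2.32e-17), 0.66 for cadmium (SE 0.15, adjusted p = 0.00514) and 2.23 for mercury (SE 0.15, adjusted p = 8.99e-20). The cadmium call was lost without cadmium replicate 1 or 2 or non-treated replicate 1 (LFC 0.59, 0.56 and 0.54, adjusted p 0.0522, 0.066 and 0.101). The arsenic and mercury calls at 24 h were kept without any single library.

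The metals reached these levels on different time courses. Mercury was the first to be called, after 3 h, with an LFC of 0.74 (adjusted p = 0.000894). The mercury libraries then held 238 ± 31.7 CPM (SD, n = 3) against 142 ± 1.09 in non-treated cells. At 3 h arsenic and cadmium had an LFC of 0.28 and 0.23, neither called. TXNRD1 was not called between mercury and either of them at 3 h. After 6 h mercury stood at 488 ± 83.4 CPM, cadmium at 286 ± 19.5, arsenic at 212 ± 1.37 and non-treated cells at 130 ± 26.2, and the libraries of the 4 conditions did not overlap. At 6 h arsenic gave an LFC of 0.70, cadmium 1.13 and mercury 1.90 (adjusted p 0.00492, 1.77e-07 and 4.39e-16), and the arsenic call was lost without non-treated replicate 1 (LFC 0.58, adjusted p = 0.116). After 12 h the LFC was 1.06, 1.51 and 1.82 (adjusted p 2.58e-07, 2.2e-12 and 6.38e-16). Between 12 and 24 h the arsenic effect grew by an LFC of 0.96 (adjusted p = 0.00722, 1.57% of all genes called) and the cadmium effect shrank, with a difference of -0.85 (adjusted p = 0.0399, 0.381% called). The change of the mercury effect, 0.41 with a 95% interval of -0.01 to 0.82, was not called, and neither was any other member for mercury by edgeR or DESeq2, with unadjusted p under 0.05 for 3 members and 0.624% of all genes called. The arsenic growth lost its call without arsenic 12 h replicate 1, non-treated 24 h replicate 1 or non-treated 12 h replicate 2 (LFC 0.82, 0.84 and 0.77, adjusted p 0.053, 0.0504 and 0.0837). The cadmium shrinkage lost its call without any of 8 of its 12 libraries, with adjusted p up to 0.273. Non-treated cells held 130 to 159 CPM on average at every time, and no member was called between 24 and 1.5 h in them by edgeR or DESeq2, with unadjusted p under 0.05 for 5 members and 3.29% of all genes called.

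**Figure D2:**
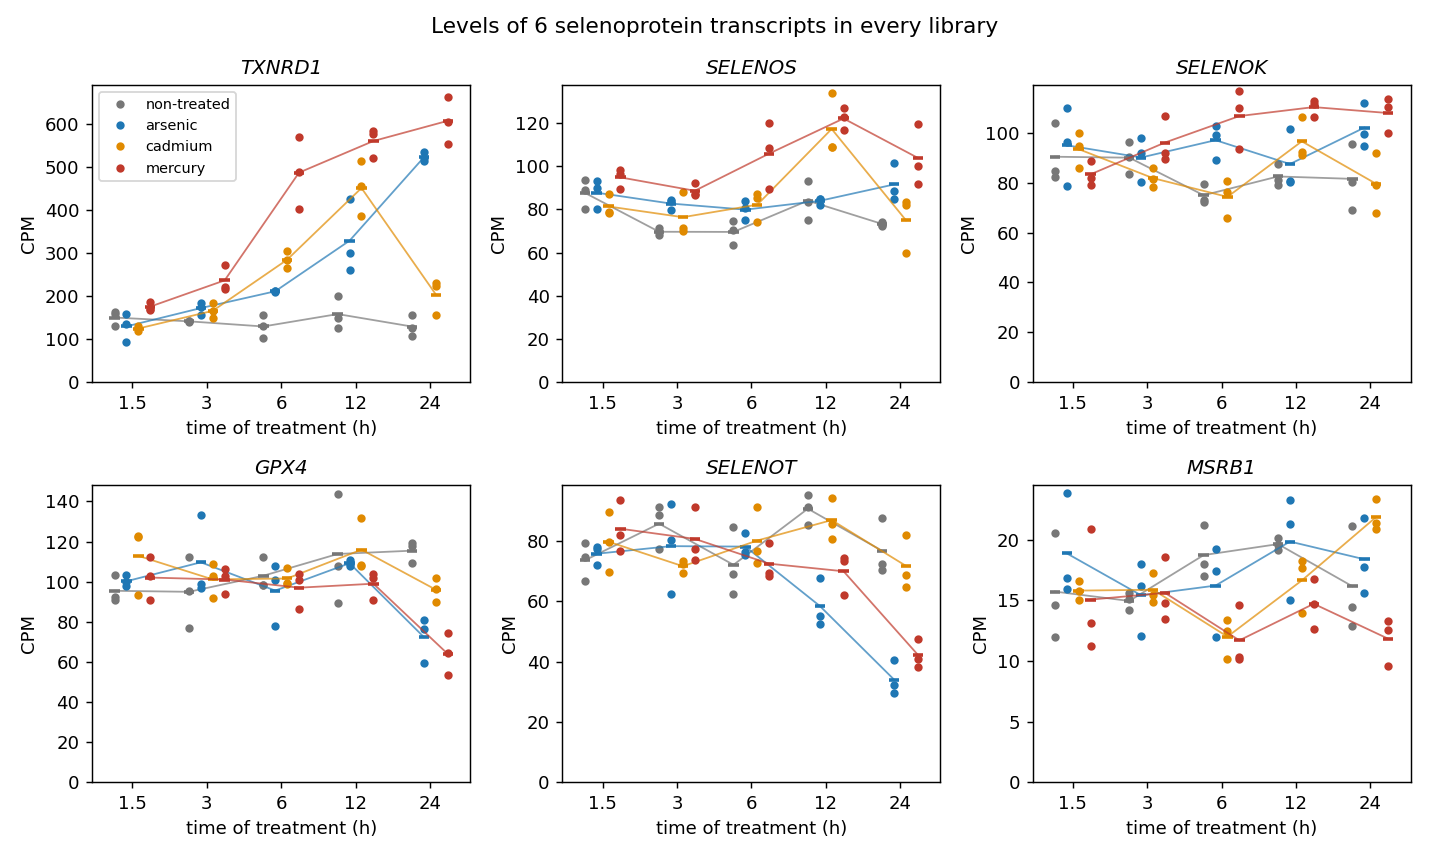
CPM of 6 selenoprotein mRNAs in every library (points) against time of treatment in h, with group means as short bars joined by lines; the axes start at 0. The mean of TXNRD1 was highest with mercury at every time, fell back with cadmium between 12 and 24 h, and reached 522, 535 and 515 CPM with arsenic at 24 h, whereas GPX4 and SELENOT at 24 h were lowest with arsenic and mercury.

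The other thioredoxin reductases moved otherwise. TXNRD2, the mitochondrial enzyme, was read at low depth, at 6.44, 8.61 and 5.48 CPM in the 24 h non-treated libraries and 3.35, 2.89 and 2.06 CPM with arsenic. It stood at 9.55, 4.87 and 5.39 CPM with cadmium and 6.61, 6.82 and 8.26 CPM with mercury. The 3 arsenic libraries were the lowest of the 12, and the cadmium and mercury libraries overlapped with the non-treated ones. Its LFC was -1.30 with arsenic (SE 0.45, adjusted p = 0.0393), -0.02 with cadmium and 0.08 with mercury. The arsenic call was lost without any of the arsenic libraries or non-treated replicate 1 or 2, with adjusted p from 0.0595 to 0.165. TXNRD3, best known from testis, was tested at a median of 9 counts per library, and its 24 h LFC lay between 0.19 and 0.40 with none called.

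GPX4, the peroxidase that reduces lipid hydroperoxides in membranes and holds back ferroptosis, was the only peroxidase that could be tested and fell at 24 h with arsenic and mercury. The non-treated libraries held 119, 109 and 118 CPM, the arsenic libraries 76.6, 59.6 and 80.7 CPM and the mercury libraries 64.2, 53.3 and 74.3 CPM. Cadmium lay between, at 102, 96.5 and 89.8 CPM, and neither the arsenic nor the mercury libraries overlapped with the cadmium or non-treated ones. The LFC was -0.68 (SE 0.14, adjusted p = 0.000187) with arsenic and -0.86 (SE 0.14, adjusted p = 1.39e-06) with mercury, and both calls were kept without any single library. With cadmium the LFC was -0.26 (95% interval -0.53 to 0.00, adjusted p = 0.399). Up to 12 h group means ran from 94.9 to 116 CPM in all conditions, with no call.

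The selenoproteins of the endoplasmic reticulum split in direction. SELENOT, a thioredoxin-like membrane protein, was at 70.3, 72.2 and 87.7 CPM in the 24 h non-treated libraries and at 32.1, 40.5 and 29.5 CPM with arsenic. Mercury gave 47.5, 40.9 and 38.3 CPM and cadmium 64.8, 81.9 and 68.6 CPM. Arsenic and mercury libraries all lay below every cadmium and non-treated library. The LFC was -1.17 (SE 0.14, adjusted p = 9.21e-10) with arsenic, -0.86 (SE 0.14, adjusted p = 9.19e-07) with mercury and -0.10 (95% interval -0.36 to 0.16) with cadmium. It was the only member that edgeR called lower before 24 h, at 12 h with arsenic (LFC -0.63, adjusted p = 0.000691) and mercury (LFC -0.37, adjusted p = 0.0417). The 12 h mercury call was lost without any mercury library or non-treated replicate 1 or 2, with adjusted p from 0.064 to 0.215, whereas both 24 h calls were kept without any single library. SELENON, a calcium-sensitive reductase linked to muscle disease, had an LFC of -0.58 (adjusted p = 0.00251) with arsenic and -0.39 (adjusted p = 0.0305) with mercury at 24 h. Non-treated replicate 3 decided both, with LFC -0.40 and -0.21 (adjusted p 0.0693 and 0.344) without it, and the mercury call was also lost without mercury replicate 3 (LFC -0.28, adjusted p = 0.205).

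SELENOS and SELENOK, which help carry misfolded proteins out of the endoplasmic reticulum for degradation, were called higher with mercury from 6 h on. At 3 h of mercury SELENOS had an LFC of 0.35, not called (adjusted p = 0.154). SELENOS had an LFC of 0.60, 0.54 and 0.50 at 6, 12 and 24 h of mercury (adjusted p 0.000132, 0.00024 and 0.000421), and these 3 calls were kept without any single library. It was also called with cadmium at 12 h (LFC 0.48, adjusted p = 0.00288; 0.37 and 0.0542 without cadmium replicate 1) and with arsenic at 24 h (LFC 0.32, adjusted p = 0.0463). The arsenic call was lost without arsenic replicate 2 or 3 or any non-treated library, with adjusted p from 0.0661 to 0.252. SELENOK had an LFC of 0.50, 0.42 and 0.41 at 6, 12 and 24 h of mercury (adjusted p 0.00337, 0.00991 and 0.00736), and the 24 h call was lost without non-treated replicate 3 (LFC 0.32, adjusted p = 0.0673). With arsenic at 24 h its LFC was 0.33 (adjusted p = 0.0562 by edgeR and 0.0464 by DESeq2) and with cadmium -0.03. At 6 h of arsenic the SELENOK LFC was 0.37, not called (adjusted p = 0.182). The gene was not called between mercury and arsenic at any time. SELENOF, a partner of the glycoprotein folding sensor, was at 36.1, 38.1 and 91.2 CPM in the 24 h non-treated libraries and at 97.6, 94.2 and 94.8 CPM with mercury. Arsenic gave 75.6, 82.5 and 83.1 CPM and cadmium 77.7, 73.9 and 36.3 CPM. Non-treated replicates 1 and 2 and cadmium replicate 3 lay far below the other 24 h libraries, and the 36.1 to 38.1 CPM they held were the lowest of all 60. The mercury LFC of 0.80 (SE 0.23, adjusted p = 0.00672) became 0.56 (adjusted p = 0.106) without non-treated replicate 1 and 0.60 (adjusted p = 0.0839) without replicate 2. Without non-treated replicate 3 the arsenic LFC of 0.55 (adjusted p = 0.112) became 1.13 (adjusted p = 0.00063) and the mercury LFC 1.38. SELENOI, a phospholipid synthesis enzyme, was not called, with 24 h LFC of 0.45, 0.03 and 0.37 with arsenic, cadmium and mercury.

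The selenoproteins best known to lose their mRNA under low selenium, beside GPX1, are SELENOH, SELENOW and MSRB1, and edgeR called none of the 3 against non-treated cells with any metal at any time. DESeq2 called MSRB1 lower with mercury at 6 h. SELENOH, a nuclear redox protein, was at 12.1, 8.92 and 13.9 CPM in the 24 h non-treated libraries and at 13.2, 7.75 and 9.25 CPM with mercury. Arsenic gave 6.69, 6.95 and 9.72 CPM and cadmium 10.2, 11.7 and 2.16 CPM. All 4 groups overlapped. Its LFC with mercury was -0.21 (95% interval -0.84 to 0.42). SELENOW, a small thioredoxin-like protein, was at 20.9, 30.7 and 18.2 CPM in non-treated libraries and at 32.1, 31.6 and 26.8 CPM with mercury. Arsenic gave 19.1, 23.7 and 20.9 CPM and cadmium 18.2, 20.6 and 29.5 CPM. The mercury LFC was 0.38 (95% interval 0.03 to 0.73, adjusted p = 0.102) and became 0.63 (adjusted p = 0.0132) without non-treated replicate 2. MSRB1, which repairs oxidised methionine, was at 21.1, 12.9 and 14.4 CPM in non-treated libraries and at 12.6, 13.3 and 9.58 CPM with mercury. Arsenic gave 17.7, 15.6 and 21.8 CPM and cadmium 21.4, 20.9 and 23.4 CPM. The mercury libraries all lay below every cadmium and arsenic library and overlapped with the non-treated ones. Its LFC was -0.45 with mercury (95% interval -0.92 to 0.01, adjusted p = 0.146), 0.18 with arsenic and 0.42 with cadmium. At 6 h MSRB1 was at 18.0, 21.2 and 17.0 CPM in non-treated libraries and at 14.6, 10.2 and 10.3 CPM with mercury, without overlap. Cadmium gave 13.4, 10.2 and 12.5 CPM at 6 h and arsenic 12.0, 19.2 and 17.4 CPM. The mercury LFC at 6 h was -0.68 (95% interval -1.15 to -0.22), with an adjusted p of 0.0583 by edgeR and 0.047 by DESeq2. With cadmium it was -0.63 (adjusted p = 0.188), and mercury and cadmium differed by -0.05 (95% interval -0.54 to 0.44).

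Among the genes of selenocysteine synthesis and decoding only SEPHS2 and SECISBP2 were called against non-treated cells. SEPHS2, the synthetase that makes selenophosphate and is itself a selenoprotein, had an LFC of 0.44 (adjusted p = 0.0222) with arsenic and 0.36 (adjusted p = 0.0496) with mercury at 24 h, and -0.01 with cadmium. The mercury call was lost without mercury replicate 1 or 2 or any non-treated library (adjusted p 0.0585 to 0.198), and the arsenic call without arsenic replicate 2 or non-treated replicate 1 or 3 (adjusted p 0.0546 to 0.0805). SECISBP2 was at 50.5, 34.1 and 51.7 CPM in the 24 h non-treated libraries and at 31.5, 40.9 and 32.4 CPM with mercury. Arsenic gave 49.5, 49.8 and 43.6 CPM and cadmium 43.6, 56.1 and 42.8 CPM. The mercury libraries lay below all arsenic and cadmium libraries, and non-treated replicate 2 lay among them. The LFC with mercury was -0.38 (SE 0.14, adjusted p = 0.0345), a call lost without mercury replicate 1 or 3 or non-treated replicate 1 or 3 (adjusted p 0.129 to 0.209). With arsenic and cadmium it was 0.06 and 0.06. SEPHS1, a homolog that does not make selenophosphate, SECISBP2L, a relative of SECISBP2, the elongation factor EEFSEC, the tRNA enzymes SEPSECS and PSTK, the selenocysteine lyase SCLY that recovers selenium, and the tRNA-associated TRNAU1AP were not called against non-treated cells. Their 24 h LFC with mercury ran from -0.33 (EEFSEC) to 0.40 (PSTK), with SEPSECS tested at a median of 9 counts. The remaining selenoproteins were also uncalled, namely the AMPylating enzyme SELENOO (mercury 24 h LFC 0.17) and the thyroxine-activating deiodinase DIO2 (-0.96, 95% interval -1.80 to -0.11, adjusted p = 0.0836).

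Mercury was then set directly against the other metals at the same time. At 1.5 and 3 h no member was called by edgeR or DESeq2 against either metal. Against arsenic unadjusted p was under 0.05 for 3 members at 1.5 h and 2 at 3 h, with 1.56% and 1.89% of all genes called. Against cadmium it was under 0.05 for 2 members at each time, with 0.656% and 1.78% called. At 6 h mercury was above arsenic in TXNRD1 (LFC 1.20, adjusted p = 1.14e-08) and SELENOS (0.40, adjusted p = 0.0227), where 4.48% of all genes were called. It was above cadmium in TXNRD1 (0.78, adjusted p = 0.000174) and SELENOK (0.52, adjusted p = 0.00469), where 3.78% were called and DESeq2 added SELENOS (adjusted p = 0.0373). At 12 h mercury was above arsenic in TXNRD1 (0.77, adjusted p = 0.000111) and SELENOS (0.54, adjusted p = 6e-04), with 6.84% called, and above cadmium in EEFSEC alone (1.12, adjusted p = 0.0303), with 3.29% called. The 6 h SELENOS call was lost without mercury replicate 1 or 2 or arsenic replicate 1 or 2 (adjusted p 0.0632 to 0.22), and that of SELENOK without cadmium replicate 1 or mercury replicate 2 (adjusted p 0.063 and 0.0576). The EEFSEC call was lost without any 1 of its 6 libraries (adjusted p 0.0517 to 0.133).

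At 24 h mercury differed from arsenic in 2 members, where 11.4% of all genes were called, and from cadmium in 7, where 20% were called, 10.3% higher and 9.7% lower. Against arsenic, TXNRD2 was higher (LFC 1.38, SE 0.45, adjusted p = 0.0333) and SECISBP2 lower (-0.45, SE 0.14, adjusted p = 0.0286). The TXNRD2 call was lost without any 1 of its 6 libraries (adjusted p 0.056 to 0.124), and that of SECISBP2 without mercury replicate 1 or 3 or arsenic replicate 1 or 2 (adjusted p 0.099 to 0.147). TXNRD1 differed by 0.22 (95% interval -0.07 to 0.50), GPX4 by -0.18 (-0.47 to 0.11) and SELENOT by 0.31 (0.01 to 0.61, adjusted p = 0.181), none of them called. The LFC against arsenic was -0.63 for MSRB1 (adjusted p = 0.0667) and 0.50 for SELENOW (adjusted p = 0.0557), and SELENOW was called by DESeq2 (adjusted p = 0.0454).

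Against cadmium at 24 h, TXNRD1 was higher by an LFC of 1.57 (SE 0.15, adjusted p = 2.18e-13), SELENOS by 0.46 (adjusted p = 0.00188) and SELENOK by 0.44 (adjusted p = 0.00571). Without cadmium replicate 3 SELENOS and SELENOK had LFC 0.33 and 0.34 (adjusted p 0.0537 and 0.068). GPX4 (LFC -0.59, SE 0.14, adjusted p = 0.00124), SELENOT (-0.76, SE 0.14, adjusted p = 2.26e-05) and MSRB1 (-0.88, SE 0.23, adjusted p = 0.00329) were lower, and the calls of TXNRD1 and of these 3 were kept without any single library. SECISBP2 was lower as well (-0.44, adjusted p = 0.0173), a call lost without cadmium replicate 2 or mercury replicate 1 or 3 (adjusted p 0.0787 to 0.17). DESeq2 added SEPHS2 (LFC 0.37, adjusted p = 0.0433). Arsenic was set against cadmium in the same way, a comparison added after the values were seen. It called 6 members, where 10.2% of all genes were called, with TXNRD1 (1.35), SEPHS2 (0.45) and SELENOK (0.36) higher and SELENOT (-1.07), SELENON (-0.52) and GPX4 (-0.41) lower. These values share the cadmium libraries with those of mercury. TXNRD1 and SELENOT kept the call without any single library. SELENON lost it without arsenic replicate 2 or cadmium replicate 3 (adjusted p 0.0629 and 0.0677), SELENOK without arsenic replicate 2 or 3 or cadmium replicate 1 or 3 (0.0792 to 0.271), SEPHS2 without any arsenic library or cadmium replicate 1 or 3 (0.0545 to 0.0899) and GPX4 without arsenic replicate 1 or 2 or any cadmium library (0.0514 to 0.286). MSRB1, at -0.25 (95% interval -0.68 to 0.19), was not called between arsenic and cadmium.

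**Figure D3:**
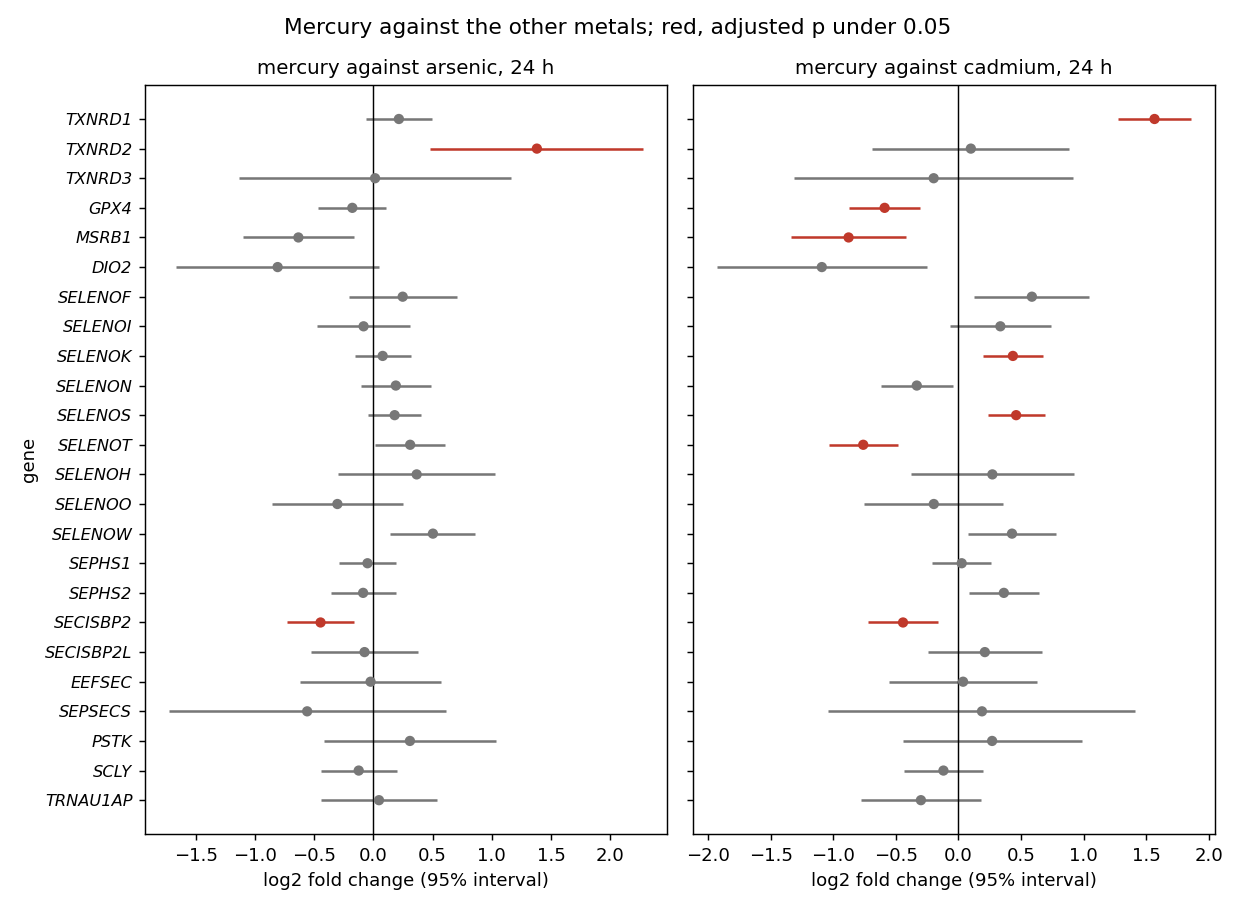
Log2 fold change of mercury against arsenic (left) and against cadmium (right) at 24 h for the 24 tested members, with 95% intervals as lines and adjusted p under 0.05 in red. Against arsenic only TXNRD2 and SECISBP2 were called, whereas against cadmium 7 members were, with TXNRD1 at 1.57 and MSRB1 at -0.88 the outermost of them.

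The 24 h values of the tested selenoproteins were set beside the place of their UGA, read in the same way as for the sequences shown above. With a limit of 50 bases before the last exon junction, chosen after the values were seen, 7 of the 16 tested selenoproteins had the UGA farther upstream (GPX4, TXNRD2, SELENOF, SELENOH, SELENON, SELENOT and SELENOW) and 9 had it nearer, in the last exon or in a gene with a single exon. With arsenic, of the 7 none was called higher and 4 lower, and of the 9, 3 were called higher and none lower. The arsenic calls of TXNRD2, SELENON, SEPHS2 and SELENOS were each lost without some single library. With mercury the counts were 1 and 3 among the 7 and 4 and 0 among the 9. SELENOF, with its UGA 78 bases upstream, was the member called higher among the 7. The mercury calls of SELENOF, SELENON, SELENOK and SEPHS2 were each lost without some single library. With cadmium the only call was TXNRD1, of the 9. The median LFC of the 7 and of the 9 was -0.58 and 0.33 with arsenic, -0.06 and 0.13 with cadmium and -0.21 and 0.36 with mercury. For mercury against cadmium 2 of the 7 were called lower and none higher, while of the 9, 3 were called higher and 1 lower, MSRB1. For mercury against arsenic the only call among the 16 was TXNRD2, of the 7 and higher, and the medians were 0.31 for the 7 and -0.08 for the 9. SELENOH and SELENOW, with the UGA 267 and 243 bases upstream, were not called with any metal. DIO2, with its UGA in the last exon, had the lowest LFC of the 16 with mercury (-0.96), not called. It was also lowest for mercury against cadmium (-1.09), again not called. Over all genes, 14.3%, 2.19% and 27.8% were called at 24 h with arsenic, cadmium and mercury. For mercury against cadmium 20% were called, and against arsenic 11.4%. The values of the metals against non-treated cells share the same non-treated libraries, so they are not independent of each other. The part of the UGA position in these values was not tested.

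**Figure D4:**
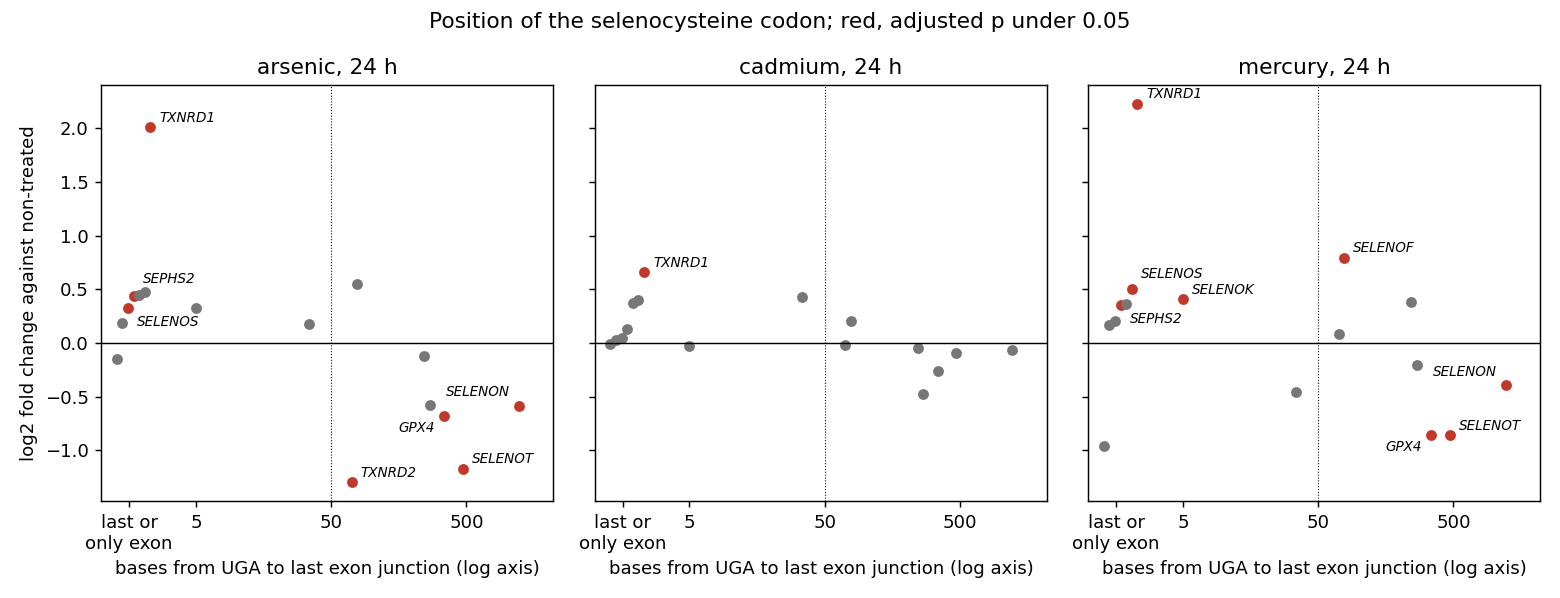
Log2 fold change at 24 h of the 16 tested selenoproteins with arsenic, cadmium and mercury against the distance in bases from the UGA to the last exon junction (log axis, with members whose UGA is in the last or only exon at the left, spread sideways for view); red, adjusted p under 0.05, and the dotted line marks 50 bases. The line was placed after the values were seen. With arsenic and mercury the members called lower all stood to the right of it. Those called higher stood to the left, except SELENOF with mercury. Over all genes 14.3% were called with arsenic and 27.8% with mercury, and both metals share the same non-treated libraries. DIO2, at the left, had the lowest mercury value (-0.96) and was not called.

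The promoters of the members were searched for the core of the antioxidant response element bound by NRF2, TGACNNNGC, and for the core of the metal response element bound by MTF1, the zinc-sensing factor that drives metallothioneins, TGCACNC or TGCGCNC, on both strands, in RefSeq windows of GRCh38.p14 from 250 bases before to 50 bases after each start. Of the 32 members 29 had a window, 39 in all. The antioxidant core was in 20.5% of the 39 windows, beside 13.3% of 35116 promoters, and in 7 members. These were TXNRD1, SELENOK, SELENON, SECISBP2, SCLY, GPX2 and SELENOP. Of them SELENON and SECISBP2 were called lower, SCLY was not called against non-treated cells, and GPX2 and SELENOP had no count. The metal response core was in 38.5% of the windows, beside 29.6% of all, and in 14 members. TXNRD1, TXNRD2, SELENOS, SELENOT and GPX4 were among them. So were SELENOH, SELENOI, EEFSEC, PSTK, TRNAU1AP and DIO2, not called against non-treated cells, and GPX1, DIO3 and SELENOV, not tested. TXNRD1 had the antioxidant core in both of its windows, at -102 in chr12:104286782-104287081 and at -99 and -8 in chr12:104215529-104215828. The 250 bases before the start in the latter window are shown because TXNRD1 moved most. Both antioxidant matches are in capitals (the downstream match lies on the other strand and its last base falls beyond the start). A metal response match at -207 in the same window is left in lower case. Counts from the 3′ end do not tell which start was used.
TXNRD1 promoter, plus strand: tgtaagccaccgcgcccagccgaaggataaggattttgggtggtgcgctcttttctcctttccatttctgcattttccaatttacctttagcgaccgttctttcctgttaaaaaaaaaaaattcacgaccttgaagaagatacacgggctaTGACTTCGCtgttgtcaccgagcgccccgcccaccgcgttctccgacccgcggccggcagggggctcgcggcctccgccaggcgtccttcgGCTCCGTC

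Genes of selenium uptake, of the tRNA and of SECIS recognition that are not members, and homologs that carry cysteine in place of selenocysteine, were read beside them. Of 20 such genes 15 were tested. With arsenic at 24 h 3 were higher and 1 lower, where 14.3% of all genes were called. With cadmium none was called by edgeR or DESeq2 and 1 had an unadjusted p under 0.05, against 2.19%. With mercury 5 were higher and 1 lower, against 27.8%. SARS1, the seryl-tRNA synthetase that also charges the selenocysteine tRNA with serine, had an LFC of 0.85 with arsenic and 0.62 with mercury (adjusted p 9.74e-09 and 1.03e-05). LRP8, the receptor that takes up the selenium carrier SELENOP, had 0.48 and 0.42 (adjusted p 0.00183 and 0.00394), and PRDX6, a peroxiredoxin that also binds selenium, 0.42 and 0.57 (adjusted p 0.000454 and 5.07e-07). EIF4A3, an exon junction helicase that can occupy SECIS elements, had 0.31 with mercury (adjusted p = 0.0187) and -0.26 with arsenic (adjusted p = 0.0942), and was higher with mercury than with arsenic by 0.57 (adjusted p = 6.25e-05) and than with cadmium by 0.36 (adjusted p = 0.00855). NCL, nucleolin, which binds selenoprotein mRNAs, had -0.25 with arsenic and -0.23 with mercury (adjusted p 0.0178 and 0.0182). GPX8, a peroxidase of the endoplasmic reticulum with cysteine at its active site, had 0.53 with mercury (adjusted p = 0.0266). Of the 3 methionine sulfoxide reductases without selenium, MSRA, MSRB2 and MSRB3, none was called against non-treated cells at 24 h, and MSRB2 was lower with mercury than with arsenic (LFC -0.81, adjusted p = 0.0138).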

How the data were processed

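Per the study's methods, mRNA of 60 libraries was sequenced from the 3′ end (QuantSeq FWD), and the authors aligned reads with STAR 2.7.9a to GRCh38 and counted them strand-specifically over GENCODE basic 43 exons, so the deposited values are raw read counts per gene. A 3′ read count does not grow with transcript length, and levels were not compared between genes. Groups were taken from the labels. The 32 members and all lists were chosen with earlier results of these data known. Counts were fitted with edgeR 4.0.16 (R 4.3.3; TMM, filterByExpr with a minimum count of 10 and a minimum total of 15, quasi-likelihood test, 1 coefficient per group over all 60 libraries, 12341 genes), and p-values were Benjamini-Hochberg adjusted over all of them. DESeq2 1.42.0 was the alternative tool. CPM used TMM-scaled totals; 3 counts stood for a level not seen. Values in every library are given for TXNRD1, GPX4, SELENOH, SELENOW, MSRB1 and the 4 called members with the largest absolute LFC at 24 h in each comparison. On simulated counts for mercury at 24 h, 147 of 200 changed genes among 11923 were called, with 14 unchanged ones. The simulated folds were pooled, and all were larger than the smaller changes called among the members, to which this recovery does not apply. The 92 spike-in rows held no counts. Same-numbered libraries were checked for pairing over 45 pairs of treated and non-treated groups: the median correlation of their deviations was -0.00799 (range -0.278 to 0.0837), so the numbers did not pair them. Codons and overlaps were read from GENCODE 44, where all 32 members had the location of the deposited table, and promoters from RefSeq GRCh38.p14.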

Additional observations from a re-analysis of the deposited data

Results flagged for a closer look

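TXNRD1 differed in its response between times under the same contrast, by the interaction term of the edgeR model. The arsenic effect at 24 h exceeded that at 12 h by an LFC of 0.956, and the cadmium effect at 24 h fell short of that at 12 h, with a difference of -0.851. The same term for mercury was 0.41 and was not called. The cause of these differences was not tested.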

How the results depend on the processing

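Counts of members and 83 gene values were recomputed with DESeq2, with RLE size factors, with every gene kept and with a higher count minimum. They were also recomputed with the replicate number as a block, from the compared libraries alone, and without each library in turn. The 83 leave out values that DESeq2 alone called. Among these are MSRB1 with mercury at 6 h and SELENOK with arsenic at 24 h. SELENOS at 6 h and SEPHS2 at 24 h for mercury against cadmium are others. Of 83 gene values, 55 of them called, DESeq2 left 82 on their side of the threshold, RLE 82, the higher minimum 82, keeping every gene 69 (12 calls lost, with more genes tested) and the compared libraries alone 69 (14 lost, with fewer libraries). Leaving out each library in turn gave 510 recomputed values, of which 92 lost their call. The 510 include those of values never called, which had no call to lose. No called value changed direction in any refit. The numbers do not pair the libraries. The replicate block moved no count of members by over 1.5 times and changed 1 call, SEPHS2 with mercury at 24 h (LFC 0.36, adjusted p = 0.053), and for TXNRD2 with cadmium at 24 h it gave 0.001. Depth limits TXNRD3, SEPSECS, DIO2, TXNRD2 and EEFSEC most, the tested members with the lowest median counts per library (9 to 26).

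Counts of members that moved by over 1.5 times were as follows, and the cause was not tested beyond the numbers of genes or libraries. With every gene kept, mercury against cadmium gave 4 calls over 1.5 to 6 h and 0 at 12 h, mercury against arsenic at 24 h gave 1, and non-treated 24 h against 1.5 h gave 1. From the compared libraries alone, mercury against arsenic gave 1 over 1.5 to 6 h and 1 at 24 h, mercury against cadmium 5 over 1.5 to 6 h, arsenic against cadmium at 24 h 3, and cadmium at 24 h and the cadmium effect 0 each. The arsenic effect at 24 h against 12 h gave 2 with DESeq2, with every gene kept and with the higher minimum. Without single libraries, the counts over 1.5 to 6 h ran from 0 to 1 for arsenic, 1 to 1 for cadmium, 4 to 5 for mercury, 1 to 2 for mercury against arsenic and 1 to 4 for mercury against cadmium. At 12 h they ran from 2 to 2 for arsenic, 1 to 3 for cadmium, 3 to 4 for mercury, 2 to 3 against arsenic and 0 to 0 against cadmium. At 24 h they ran from 4 to 6 for arsenic, 0 to 1 for cadmium, 5 to 8 for mercury (5 without non-treated replicate 3), 0 to 1 for mercury against arsenic, 6 to 9 against cadmium and 2 to 6 for arsenic against cadmium. The effects at 24 h against 12 h gave 0 to 2 for arsenic, 0 to 1 for cadmium and 0 to 1 for mercury, and non-treated 24 h against 1.5 h gave 0 to 1.

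Values not called changed sign without a single library at 24 h in 10 results. With arsenic SECISBP2 ran from -0.096 to 0.171 and SELENOW from -0.258 to 0.127. With cadmium SECISBP2 ran from -0.101 to 0.172, SELENOF from -0.028 to 0.793, SELENOT from -0.204 to 0.021, SELENOW from -0.253 to 0.199 and TXNRD2 from -0.409 to 0.176. TXNRD2 ran from -0.036 to 0.273 with mercury and from -0.084 to 0.501 for mercury against cadmium, where SELENOH ran from -0.117 to 0.586.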
